A study of Mus musculus with 6 samples.

Results

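The genes examined were 30 genes of cholesterol synthesis, uptake, efflux and turnover, chosen by symbol from the 32531 gene entries counted in each library. By role they were 7 enzymes of the mevalonate arm, 11 enzymes of the sterol arm, 5 regulators, and 7 genes of uptake, efflux and turnover. All 30 had a row in every file and all 30 passed the low-count filter. They were measured by translating ribosome affinity purification followed by RNA sequencing of midbrain from adult Lhx5-EGFP/Rpl10a mice of the single transgenic line DT154. In this line ribosomes carry an EGFP-tagged copy of the protein Rpl10a under control of Lhx5, a LIM homeodomain gene, so an anti-EGFP antibody pulls down polysomes from cells in which that driver is active. The groups were 3 IP libraries, of RNA from the pull-down, and 3 libraries with the title Input, all from untreated control mice carrying the transgene. A further label calls the Input libraries unbound, so they may be whole homogenate or the fraction left after the pull-down. The labels do not say that the replicates were separate animals, so p-values measure the spread between these libraries, which may be technical.

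Cholesterol is made inside the brain because lipoproteins of the blood do not cross the blood-brain barrier. Acetyl groups are joined and reduced to mevalonate, mevalonate is phosphorylated and decarboxylated to isoprene units, and these are condensed to farnesyl pyrophosphate. Squalene is then formed, oxidised and folded to lanosterol, which a series of demethylations, reductions and isomerisations turns into cholesterol. The transcription factors SREBP1 and SREBP2 switch on the pathway when sterols in the endoplasmic reticulum are low, and oxysterols acting on LXR receptors switch on efflux. Astrocytes and oligodendrocytes are known as strong producers in the adult brain, and neurons are known to clear surplus cholesterol as 24-hydroxycholesterol.

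Gene totals were 38058239 to 45841499 counts per library. Lhx5 had a log2 fold change of 3.93 in IP over Input (SE 0.23). Markers of neurons were higher in IP for 7 of 8 genes, with summed levels of 24497 to 28928 CPM (counts scaled to library size) in IP and 10144 to 14184 CPM in Input. Their median log2 fold change was 0.83, with a range from -0.17 to 1.52, and the largest among the cholesterol genes was 0.83. Glial markers were lower, as given beside the falls. Libraries of the same group differed in markers of other regions: 4 Purkinje cell markers summed to 1007 CPM in IP replicate 2, against 126 and 95.8 CPM in IP replicates 1 and 3 and 90.3 to 149 CPM in Input. Striatal markers summed to 22.6 to 42.5 CPM in IP, against 92.4, 39.7 and 457 CPM in Input replicates 1, 2 and 3. Choroid plexus markers summed to 2.83 to 23.6 CPM in IP, against 356, 14.5 and 1312 CPM in the same Input libraries.

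Of the 30 cholesterol genes, 6 were higher in IP, 6 were lower and 18 did not pass (edgeR's quasi-likelihood test, adjusted p under 0.05). The genes higher in IP were Acat2, Mvk, Pmvk, Sqle, Scap and Insig2, and the genes lower were Lss, Hsd17b7, Srebf1, Abca1, Npc1 and Soat1. Among all 17197 genes tested, 53.9% passed in either direction, 26% higher and 27.9% lower, against 40% of the cholesterol genes. With upper-quartile scaling the split of all calls was 3429 higher and 5567 lower, against 4467 and 4794 with the scaling used here. The IP libraries all lay above the Input libraries for 7 cholesterol genes and below them for 6, against 30.7% and 32.8% of all genes (63.5% in either direction). The test for a change over 2-fold was passed by 1 cholesterol gene, Abca1, and by 15.1% of all genes (2.25% higher and 12.9% lower). The median log2 fold change of the 30 genes was 0.12, and that of all tested genes was -0.01. The 30 genes summed to 1348 ± 168 CPM in IP and 1245 ± 137 CPM in Input (n = 3 each, SD), a difference smaller than the spread between replicates. Leaving out both IP replicate 2 and Input replicate 3 gave 5 genes higher and 5 lower.

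**Figure D1:**
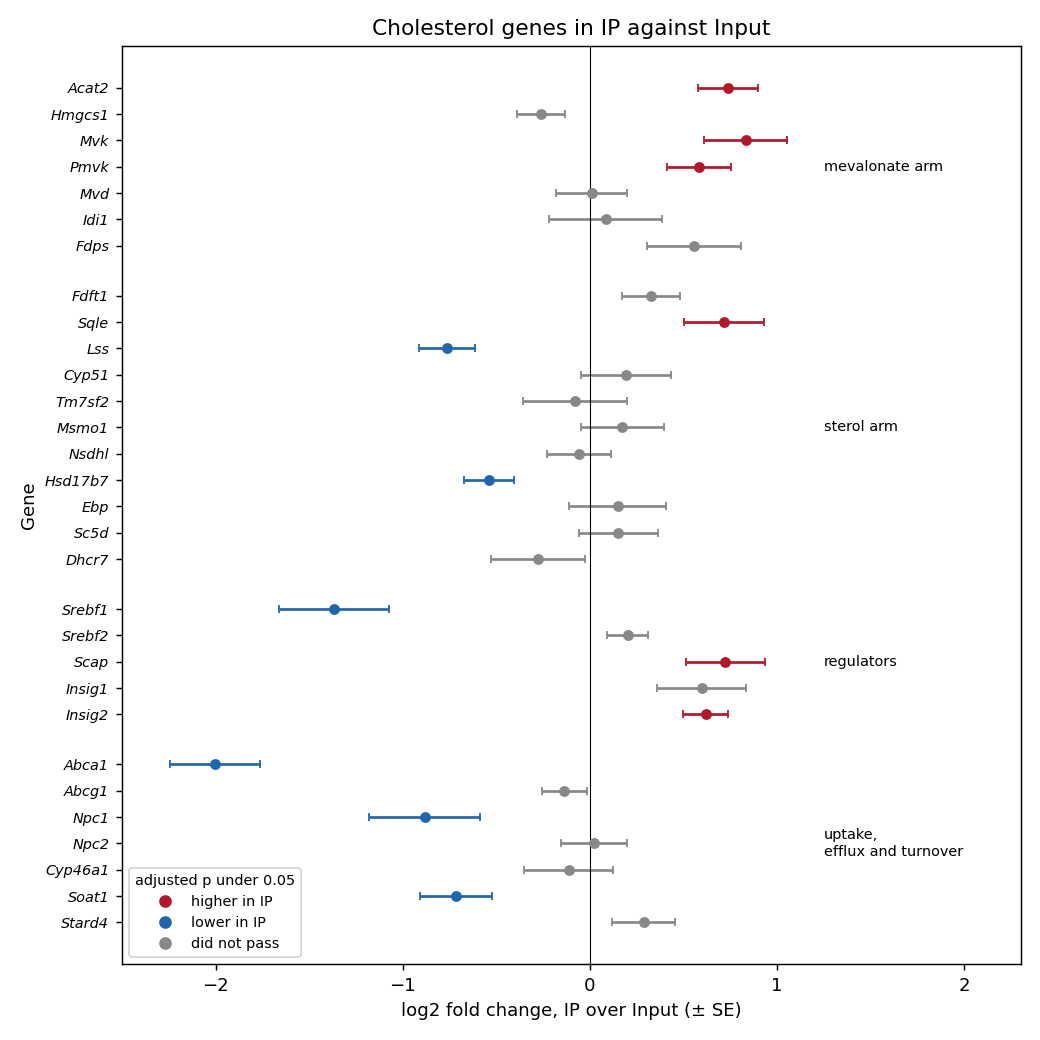
Log2 fold change of each cholesterol gene in IP over Input, with its SE as a horizontal bar, grouped by role and coloured by its call (n = 3 libraries per group). Abca1 at -2.0 and Srebf1 at -1.37 stand farthest from 0, and the gene farthest to the right is Mvk at 0.83.

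The calls in each class are read beside the shares of all genes, 26% higher and 27.9% lower. Of the 18 synthesis enzymes 4 were higher, 2 lower and 12 did not pass, with log2 fold changes from -0.76 to 0.83 and a median of 0.15. Of the 7 genes of uptake, efflux and turnover 0 were higher, 3 lower and 4 did not pass, from -2.0 to 0.29 with a median of -0.14. Summed CPM of the synthesis enzymes was 772 ± 101 in IP and 712 ± 55.7 in Input (n = 3 each, SD). For uptake, efflux and turnover it was 209 ± 33.3 in IP and 267 ± 34.7 in Input. The synthesis median was -0.0029 with upper-quartile scaling, where the median of all genes shifted to -0.17, and -0.031 without IP replicate 1. Without Input replicate 1 or Input replicate 2, 1 gene of uptake, efflux and turnover was lower, and without IP replicate 2 1 of them, Stard4, was higher. With the replicate block 6 synthesis enzymes were higher and 3 lower, and 3 genes of uptake, efflux and turnover were lower. The classes were not tested against each other or against all genes.

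In the mevalonate arm 3 enzymes were higher in IP and 4 did not pass. Mvk, mevalonate kinase, had 20.4, 12.4 and 16.4 CPM in IP replicates 1, 2 and 3, against 11.1, 7.81 and 8.78 CPM in Input. Each IP library lay above every Input library, and the log2 fold change was 0.83 (SE 0.22, adjusted p = 0.0125). Acat2, the cytosolic acetoacetyl-CoA thiolase of the first step, had 53.9, 44.1 and 67.7 CPM in IP, against 34.7, 33.0 and 31.8 CPM in Input. Acat2 was higher by 0.74 (SE 0.16, adjusted p = 0.00503) with no overlap between groups. The value of Acat2 is uncertain, because 65.6% of its transcript was near-identical to other genes, among them its paralogue Acat3. Pmvk, phosphomevalonate kinase, had 71.4, 52.7 and 82.4 CPM in IP, against 41.0, 48.4 and 48.7 CPM in Input, also without overlap. Its log2 fold change was 0.58 (SE 0.17, adjusted p = 0.0193), and its adjusted p was 0.051 without IP replicate 1, 0.0708 without Input replicate 1 and 0.0608 with upper-quartile scaling.

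Hmgcs1, the cytosolic HMG-CoA synthase, had the highest mean level per length of the 30 genes in both groups, and it did not pass the test. Its values were 148, 133 and 175 CPM in IP, against 182, 168 and 196 CPM in Input, so the groups overlapped. Its log2 fold change was -0.26 (SE 0.13, adjusted p = 0.117), with IP below Input in 3 of 3 same-numbered pairs. With the replicate number as a block Hmgcs1 was lower at -0.27 (adjusted p = 0.0437), as it was with upper-quartile scaling (-0.42) and without IP replicate 3 (-0.36). Mvd, which decarboxylates mevalonate pyrophosphate, stood at 0.01 (SE 0.19). Idi1, the isopentenyl pyrophosphate isomerase, stood at 0.08 (SE 0.30) with 2.03 to 3.46 CPM in IP and 2.18 to 2.86 CPM in Input. Fdps, farnesyl pyrophosphate synthase, stood at 0.56 (SE 0.25, adjusted p = 0.0941), and passed with the replicate block (adjusted p = 0.0457) and without IP replicate 2 (adjusted p = 0.0256). The values of Idi1 and Fdps are uncertain: 22.6% of the Idi1 transcript and 76.8% of the Fdps transcript were near-identical to other genes, which for both genes were processed pseudogenes. Fdps also shares 77.4% of its exons with the same-strand gene Gm43738, the largest overlap among the 30 genes. Alignments that were not unique took 43.8 to 44.5% of each IP library and 31.8 to 33.0% of each Input library, and their part in these values was not tested.

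The promoters of 4 genes are printed to show what lies at the starts of a mevalonate-arm gene at the top of the level range, the gene with the largest rise, a sterol-arm gene that fell and the efflux gene with the largest fall. Each is the RefSeq window from 250 bases before to 50 bases after the start of the gene (GRCm38.p6), read 5′ to 3′ on the strand of the gene, with capitals on sterol response elements (TCACNCCAC), NF-Y boxes (CCAAT) and E-boxes (CACGTG) found on either strand. The Hmgcs1 window is chr13:119690101-119690400 on the plus strand, and that of Mvk is chr5:114444019-114444318 on the plus strand. The Lss window is chr10:76531355-76531654 on the plus strand, and that of Abca1 is chr4:53159846-53160145 on the minus strand.
Hmgcs1: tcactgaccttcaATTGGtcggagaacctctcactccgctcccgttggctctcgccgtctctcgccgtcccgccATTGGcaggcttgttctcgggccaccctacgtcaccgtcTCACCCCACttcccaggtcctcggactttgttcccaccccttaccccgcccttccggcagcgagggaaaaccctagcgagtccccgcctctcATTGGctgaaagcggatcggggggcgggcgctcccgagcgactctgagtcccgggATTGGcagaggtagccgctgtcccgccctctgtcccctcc
Mvk: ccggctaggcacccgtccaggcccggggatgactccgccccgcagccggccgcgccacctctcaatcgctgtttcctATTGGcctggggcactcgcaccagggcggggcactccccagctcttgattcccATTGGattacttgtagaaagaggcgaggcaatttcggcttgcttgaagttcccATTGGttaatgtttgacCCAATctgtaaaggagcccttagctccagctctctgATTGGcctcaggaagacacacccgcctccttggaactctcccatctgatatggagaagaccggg
Lss: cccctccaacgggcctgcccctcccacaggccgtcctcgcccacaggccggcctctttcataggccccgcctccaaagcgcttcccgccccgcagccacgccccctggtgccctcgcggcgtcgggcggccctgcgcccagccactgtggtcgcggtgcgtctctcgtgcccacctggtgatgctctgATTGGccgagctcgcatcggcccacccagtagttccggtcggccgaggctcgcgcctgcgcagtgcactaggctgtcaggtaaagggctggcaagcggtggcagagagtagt
Abca1: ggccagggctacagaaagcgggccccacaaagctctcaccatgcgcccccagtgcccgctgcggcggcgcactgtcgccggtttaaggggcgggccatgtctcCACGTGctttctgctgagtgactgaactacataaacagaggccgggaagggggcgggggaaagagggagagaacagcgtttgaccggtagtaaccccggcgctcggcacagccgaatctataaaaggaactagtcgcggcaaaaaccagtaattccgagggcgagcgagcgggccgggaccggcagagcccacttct

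A window was found for 24 of the 30 genes. The NF-Y box, bound by a factor known to act together with SREBPs, was in a window of 21 of these 24 genes, and in 41.1% of all genes with a window. The Sp1 box (GGGCGG) was in 23 of 24 genes and in 38.2% of all genes. The E-box was in 6 of 24 genes and in 8.09% of all, and the sterol response element in 1 of 24, Hmgcs1, and in 1.44% of all. The NF-Y box was found in genes that were higher, lower and not called: Mvk held 5 NF-Y boxes and Lss held 1, while the Abca1 window held 0 NF-Y boxes and 1 E-box. The shares of all genes are over 27025 genes with a window, whether tested here or not, while all 24 cholesterol genes were tested. The sets are thus unlike, and the shares were not tested against each other. A match describes letters in this window, and variants of these motifs were not searched.

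In the sterol arm 1 enzyme was higher in IP, 2 were lower and 8 did not pass. Sqle, squalene monooxygenase and a rate-limiting step of the sterol arm, had 123, 87.0 and 79.0 CPM in IP replicates 1, 2 and 3, against 69.9, 61.9 and 44.0 CPM in Input. All IP libraries lay above all Input libraries, with replicate 1 the highest and replicate 3 the lowest in both groups. Sqle was higher by 0.72 on the log2 scale (SE 0.21, adjusted p = 0.0204), and with the replicate block the adjusted p was 0.0016. Its adjusted p was 0.0664 once IP replicate 1 was dropped, 0.0548 once IP replicate 2 was, and 0.0657 once Input replicate 3 was.

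Lss, lanosterol synthase, which folds oxidised squalene into the first sterol, had 24.0, 18.7 and 26.2 CPM in IP, against 38.8, 37.2 and 41.1 CPM in Input. The groups did not overlap, and the log2 fold change was -0.76 (SE 0.15, adjusted p = 0.00284). Sqle and Lss, which act one after the other, passed in different directions, where 26% of all genes passed higher and 27.9% lower. The call of Sqle was lost in 7 of 19 alternatives, and the difference between the 2 genes was not tested. Hsd17b7, the 3-ketosteroid reductase of the C4 demethylation steps, had 40.0, 33.8 and 41.1 CPM in IP, against 63.4, 51.1 and 52.4 CPM in Input. It was lower at -0.54 on the log2 scale (SE 0.13, adjusted p = 0.00943) with no overlap. Its adjusted p was 0.0854 without both replicate 1 libraries and 0.0666 without both replicate 2 libraries.

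The other 8 enzymes of the sterol arm stood between -0.28 and 0.32. Fdft1, squalene synthase, stood at 0.32 (SE 0.15, adjusted p = 0.108), and passed with the replicate block (adjusted p = 0.0497). Its value is uncertain for the same reason as those of Idi1 and Fdps: 33.7% of its transcript was near-identical to a processed pseudogene. Exons of the opposite-strand gene Ctsb overlap 20.9% of Fdft1, and reads that fell in more than 1 gene took 1.59 to 1.68% of each IP library and 8.03 to 10.9% of each Input library, whose part in the values of overlapping genes was not tested. Cyp51, the lanosterol 14-alpha-demethylase, had 110, 82.5 and 57.6 CPM in IP, against 88.1, 74.6 and 55.9 CPM in Input, and the log2 fold change of 0.19 (SE 0.24) was smaller than the spread between replicates. Msmo1, the C4-methyl sterol oxidase, stood at 0.17 (SE 0.22) and Sc5d, the sterol C5-desaturase, at 0.15 (SE 0.21). Ebp, the sterol isomerase, stood at 0.15 (SE 0.26), Nsdhl, the C4-decarboxylating dehydrogenase, at -0.06 (SE 0.17) and Tm7sf2, a C14-sterol reductase, at -0.08 (SE 0.28). Dhcr7, the 7-dehydrocholesterol reductase of the last step of one branch, stood at -0.28 (SE 0.25, adjusted p = 0.377).

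**Figure D2:**
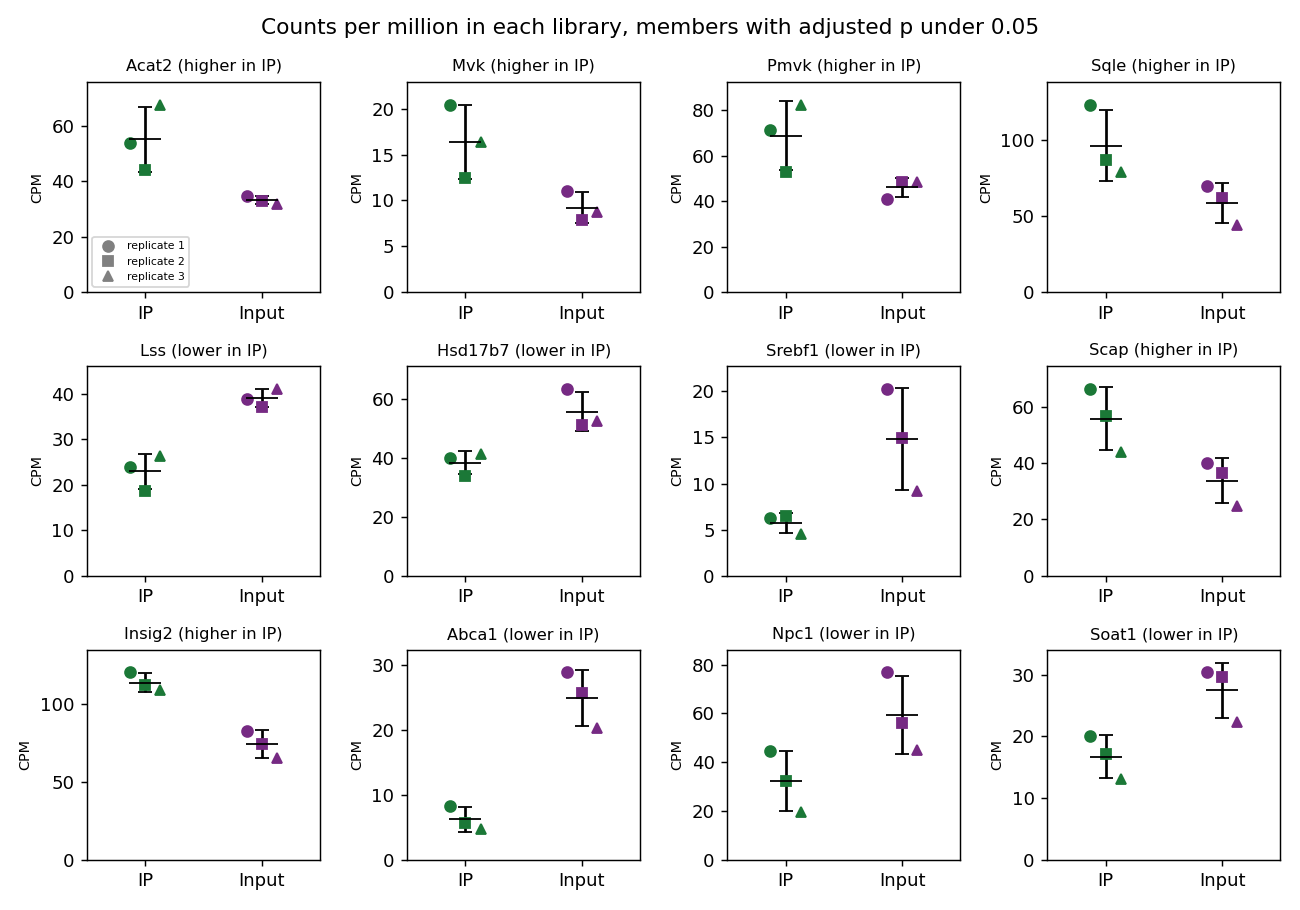
CPM in each of the 6 libraries for the 12 cholesterol genes that passed, with IP (green) left of Input (purple), replicate numbers as symbols, and the mean with its SD in black (n = 3 each). The groups do not overlap in any panel, but the panels were picked by a test on these same values. Of all tested genes 63.5% did not overlap. Replicate 1 lies above replicate 3 in both groups for Mvk, Sqle, Srebf1, Scap, Insig2, Abca1, Npc1 and Soat1.

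Of the 5 regulators 2 were higher in IP, 1 was lower and 2 did not pass. Among all genes 26% passed higher and 27.9% lower. Insig2 holds the SREBP escort protein in the endoplasmic reticulum when sterols are high. Insig2 had 120, 112 and 109 CPM in IP, against 82.8, 74.4 and 65.0 CPM in Input. Every IP library was above every Input library, and the log2 fold change was 0.62 (SE 0.12, adjusted p = 0.00279). Its paralogue Insig1, itself a target of SREBPs, had 134, 94.7 and 97.5 CPM in IP, against 91.7, 75.9 and 47.9 CPM in Input. The groups did not overlap for Insig1 either, but it did not pass at 0.60 (SE 0.24, adjusted p = 0.0606). With the replicate block Insig1 was higher (adjusted p = 0.00862), and it passed with DESeq2 (adjusted p = 0.0431), with limma-voom (adjusted p = 0.0484) and without Input replicate 1 (adjusted p = 0.0285). Scap, the escort protein itself, had 66.4, 56.7 and 44.1 CPM in IP, against 40.0, 36.5 and 24.8 CPM in Input. Scap was higher by 0.72 (SE 0.21, adjusted p = 0.0182) with no overlap. Its adjusted p was 0.0619 once IP replicate 1 was dropped, 0.0768 once IP replicate 2 was, and 0.057 once Input replicate 3 was. An opposite-strand gene overlaps 18.6% of the Scap exons.

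Srebf1, whose product acts mainly on fatty acid genes, had 6.26, 6.47 and 4.52 CPM in IP, against 20.3, 14.96 and 9.20 CPM in Input. All IP libraries were below all Input libraries, and Srebf1 was 2.58-fold lower (-1.37 on the log2 scale, SE 0.29, adjusted p = 0.00455). The test for a change over 2-fold gave Srebf1 an adjusted p of 0.187. Srebf2, whose product acts mainly on cholesterol genes, had 89.2, 75.2 and 84.1 CPM in IP, against 76.2, 71.0 and 68.7 CPM in Input. The groups overlapped, and its log2 fold change was 0.20 (SE 0.11, adjusted p = 0.152). The difference between Srebf1 and Srebf2 in fold change was not tested.

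In uptake, efflux and turnover the falls were of an efflux pump, a lysosomal exporter and the esterifying enzyme. Abca1 (chr4:53030787-53159895, GENCODE M21, GRCm38), which loads cholesterol onto apolipoproteins, had 8.31, 5.66 and 4.66 CPM in IP, against 28.9, 25.6 and 20.3 CPM in Input. The highest IP library held less than any Input library. Abca1 was 4.01-fold lower (log2 fold change -2.0, SE 0.24, adjusted p = 0.000295), and the test for a change over 2-fold gave an adjusted p of 0.00471. Without both replicate 2 libraries Abca1 stood at -1.88 (adjusted p = 0.014) and no longer passed the 2-fold test, and it was lower in each of the 19 alternatives. Npc1 (chr18:12189692-12236400), which moves cholesterol out of lysosomes after lipoprotein uptake, had 44.6, 32.4 and 19.7 CPM in IP, against 76.8, 56.2 and 45 CPM in Input. The IP libraries lay just below the Input libraries, and Npc1 was lower at -0.88 (SE 0.30, adjusted p = 0.0332). With the replicate block its adjusted p was 0.000839. It did not pass without IP replicate 2 (adjusted p = 0.0987), IP replicate 3 (0.0694), Input replicate 1 (0.122) or Input replicate 2 (0.0636), or with no low-count filter (0.0534).

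Soat1, which esterifies cholesterol for storage, had 20.0, 17.1 and 13.1 CPM in IP, against 30.4, 29.6 and 22.4 CPM in Input. The groups did not overlap, and Soat1 was lower at -0.71 (SE 0.19, adjusted p = 0.0133). Without Input replicate 1 or Input replicate 2 its adjusted p was 0.0531 and 0.0507. Cyp46a1, the cholesterol 24-hydroxylase known from neurons, had the highest mean level per length of this class in both groups. Its values were 45.2, 43.7 and 22.9 CPM in IP, against 36.7, 42.7 and 41.7 CPM in Input, with IP replicate 3 apart from the other 5 libraries. The log2 fold change of Cyp46a1 was -0.11 (SE 0.24, adjusted p = 0.707), and without IP replicate 3 it was 0.15 (adjusted p = 0.301). Stard4, a soluble sterol carrier, had 31.9, 23.0 and 35.1 CPM in IP, against 26.3, 23.7 and 23.7 CPM in Input, and stood at 0.29 (SE 0.17, adjusted p = 0.182). Without IP replicate 2 its adjusted p was 0.0378. Abcg1, another efflux pump that passes cholesterol to lipoprotein particles, stood at -0.14 (SE 0.12), and Npc2, the lysosomal partner of Npc1, at 0.02 (SE 0.18).

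Beside these falls, the lists of glial and vascular markers had medians lower than the log2 fold change of Abca1. Single markers fell less: the weakest endothelial marker stood at -1.88, the weakest microglial at -0.49 and the weakest mural or fibroblast at -0.32. All 10 astrocyte markers were lower, with a median log2 fold change of -3.24 and summed levels of 128 to 189 CPM in IP and 1152 to 1534 CPM in Input. The 10 oligodendrocyte markers were lower, at a median of -3.59, with 337 to 499 CPM in IP and 4369 to 5199 CPM in Input. All 5 oligodendrocyte precursor markers were lower (median -3.28, 21.7 to 28.3 CPM in IP and 224 to 256 CPM in Input). Of 8 microglial markers 7 were lower, with 13.7 to 26.1 CPM in IP and 62.6 to 115 CPM in Input. Of 5 endothelial markers tested 5 were lower, with 6 markers summing to 1.56 to 2.27 CPM in IP and 9.35 to 13.5 CPM in Input, and 5 of 6 mural and fibroblast markers were lower (5.78 to 10.1 CPM in IP and 34.8 to 68.9 CPM in Input). None of these markers was at 0 in all IP libraries. The part of these cells in the values of the cholesterol genes was not tested. IP holds RNA pulled down with ribosomes, so an RNA's cells of origin, its ribosome loading and pull-down background cannot be told apart.

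**Figure D3:**
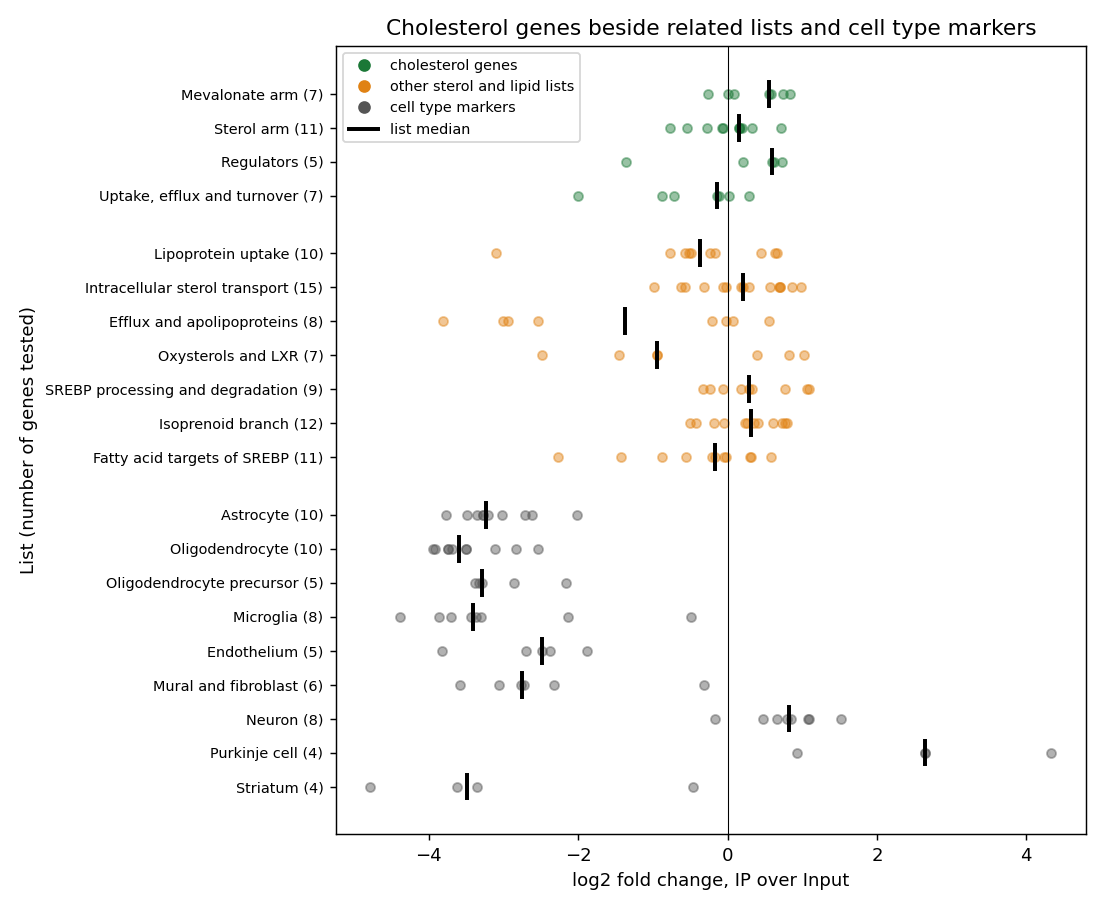
Log2 fold change in IP over Input of each tested gene (points) and the list median (black bar) for the 4 classes of cholesterol genes, 7 other sterol and lipid lists and the cell type markers with at least 3 tested genes. The cholesterol classes have medians between -0.14 and 0.60, while the 6 glial and vascular lists have medians of -2.48 or less.

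Levels between genes were compared as CPM per kb of exon. Hmgcs1 stood first, at 43.6 ± 6.09 CPM per kb in IP and 52.3 ± 4.04 in Input (n = 3 each, SD). It was followed in IP by Insig1 (40.3 ± 8.13), Pmvk (40.2 ± 8.79), Insig2 (38.5 ± 2.0) and Sqle (34.95 ± 8.56), whose spreads overlap. The lowest level in IP was that of Abca1, at 0.605 ± 0.184 CPM per kb against 2.43 ± 0.421 in Input. Idi1 stood at 0.908 ± 0.237 in IP and 0.857 ± 0.121 in Input, with the reservation on shared sequence given above. Within the mevalonate arm, Hmgcs1 made up 34.0% ± 2.37 of the summed level per kb in IP and 47.8% ± 1.46 in Input, and Pmvk 31.0% ± 1.33 in IP and 24.6% ± 2.39 in Input. Within the sterol arm, Sqle made up 24.1% ± 0.737 in IP and 16.4% ± 1.35 in Input, and Lss 3.51% ± 0.979 in IP and 6.63% ± 1.36 in Input. These differences in share were larger than the SD of either group and were given no test. The arm sums include Acat2, Idi1, Fdps and Fdft1, whose values are uncertain, and lengths were not corrected for shared sequence. An opposite-strand gene overlaps 16.0% of the Hmgcs1 exons.

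**Figure D4:**
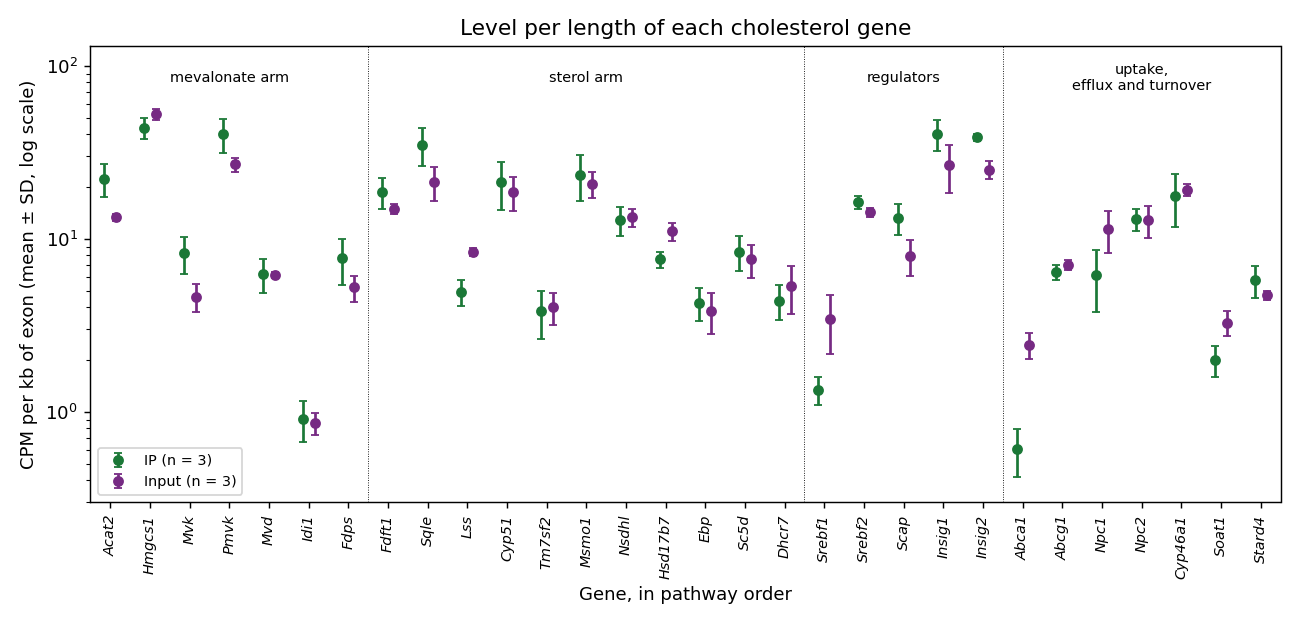
Mean level of each cholesterol gene in CPM per kb of exon, on a log axis, in pathway order, with the SD as a bar (IP green, Input purple, n = 3 each). Hmgcs1 is the highest in both groups, Abca1 the lowest in IP and Idi1 the lowest in Input.

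Many of the cholesterol genes were high or low in the same replicate number of both groups. The labels give one lane number to each IP library and the Input library of the same number. Replicate 1 was the highest of its group in both IP and Input for 17 of the 30 genes (56.7%), against 13.4% of all tested genes. Replicate 3 was the lowest in both groups for 13 of the 30 (43.3%), against 15.4% of all genes. In the sterol arm replicate 1 was the highest in both groups for 8 of 11 enzymes and replicate 3 the lowest in both for 6. In the mevalonate arm replicate 3 was the lowest in both groups for 0 of 7 enzymes and the highest in both for 3. Across the 30 genes, deviations from the group means (log2 CPM plus 0.5) correlated at 0.45, 0.58 and 0.61 within pairs 1, 2 and 3. Within the sterol arm they correlated at 0.58, 0.45 and 0.71, and within the 7 enzymes of the mevalonate arm at 0.43, 0.39 and -0.20. Across all 17197 tested genes they correlated at 0.25, 0.10 and 0.11, and genes of one library share its depth and handling and are not independent. With the replicate block, 9 cholesterol genes were higher and 7 lower, which is 53.3% of them, against 56.3% of all genes in that fit. The genes added by the block were Fdps, Fdft1, Insig1 and, lower in IP, Hmgcs1.

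**Figure D5:**
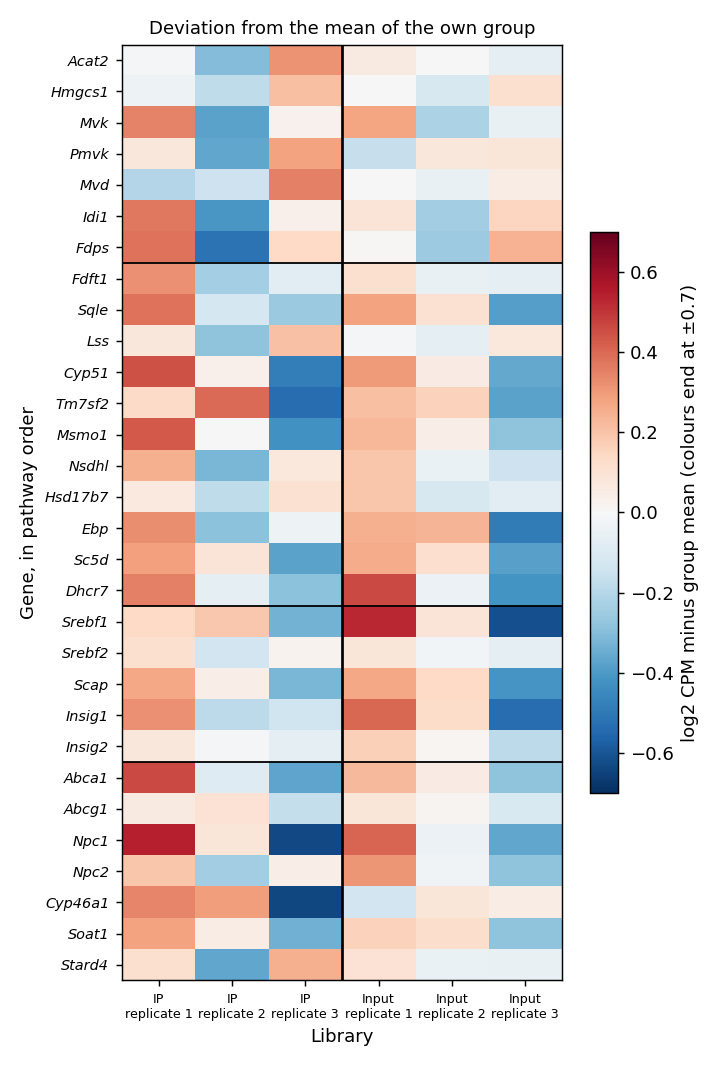
Log2 CPM of each cholesterol gene in each library minus the mean of its own group, IP libraries left of Input libraries, with genes in pathway order (colours end at ±0.7). Replicate 1 of both groups is mostly red and replicate 3 of both groups mostly blue in the sterol arm, for 8 and 6 of its 11 enzymes the extremes of both groups.

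Other genes of the pathway were taken from 7 further lists. In the isoprenoid branch, which uses farnesyl pyrophosphate for other products, 6 of 12 genes were higher and 1 lower, with a median of 0.31. Fnta, the shared alpha subunit of the protein prenyltransferases, was higher at 0.79 (SE 0.11) and Rabggtb, a subunit of the Rab prenyltransferase, at 0.73 (SE 0.13). Trit1, which prenylates tRNA, was lower at -0.50 (SE 0.16). Trit1 did not pass without IP replicate 1 (adjusted p = 0.0807), Input replicate 2 (0.0676) or Input replicate 3 (0.0698). Of 9 genes of SREBP processing and degradation 3 were higher and 0 lower, with a median of 0.29, led by Pgrmc1, a haem-binding partner of Insig and sterol enzymes, at 1.09 (SE 0.18) and Aup1, a degradation factor of the endoplasmic reticulum, at 1.06 (SE 0.20).

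Of 15 genes of intracellular sterol transport 6 were higher and 2 lower, with a median of 0.21. Osbpl2 and Osbpl9, oxysterol-binding protein relatives, were higher at 0.70 (SE 0.11) and 0.70 (SE 0.12). Gramd1a, a sterol transporter at membrane contacts, was lower at -0.56 (SE 0.13; adjusted p = 0.0601 without both replicate 2 libraries). Osbpl8 was lower at -0.62 (SE 0.21), with 72.6, 76.7 and 72.8 CPM in IP, against 90.1, 91.8 and 159.8 CPM in Input. Input replicate 3 stood apart, and without it Osbpl8 stood at -0.32 (adjusted p = 0.0453). Leaving out any 1 IP library ended the call of Osbpl8 (adjusted p 0.0705 to 0.0949). In lipoprotein uptake 0 of 10 were higher and 3 lower, with a median of -0.37. Lrp8, a receptor for apolipoproteins and reelin, had 51.6 ± 7.44 CPM in IP and 76.6 ± 9.42 CPM in Input (n = 3 each, SD), and was lower at -0.57 (SE 0.15). Its adjusted p was 0.0638 without both replicate 1 libraries and 0.0666 without both replicate 2 libraries.

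Of 8 efflux and apolipoprotein genes 1 was higher and 4 lower, with a median of -1.37. Apod, apolipoprotein D, had 23.2 ± 5.08 CPM in IP and 327 ± 142 CPM in Input (n = 3 each, SD), a log2 fold change of -3.82 (SE 0.36). Lcat, which esterifies cholesterol on lipoproteins, was lower at -2.94 (SE 0.34). Abcg4, an efflux pump known from neurons and related to Abcg1, was higher at 0.55 (SE 0.17), with 59.2 ± 1.81 CPM in IP and 40.4 ± 9.14 CPM in Input. Abcg4 stood at 0.36 without Input replicate 3 (adjusted p = 0.0408), and did not pass without IP replicate 2 (0.088), without both replicate 1 libraries (0.0832) or with upper-quartile scaling (0.0693).

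Of 7 tested genes of oxysterols and LXR 2 were higher and 4 lower, with a median of -0.95. Nr1h2, the gene of LXR-beta, had 29.0 ± 5.06 CPM in IP and 14.3 ± 0.758 CPM in Input (n = 3 each, SD) and was higher at 1.02 (SE 0.16), and Rxrb, a partner receptor, at 0.83 (SE 0.17). The oxysterol enzymes Cyp27a1 and Hsd3b7 were lower at -2.49 (SE 0.38) and -1.45 (SE 0.34), and Hsd3b7 did not pass without both replicate 1 libraries (adjusted p = 0.0722) or both replicate 2 libraries (0.0752). Of 11 fatty acid genes known as SREBP targets 2 were higher and 3 lower, with a median of -0.17. Acly, ATP citrate lyase, was higher at 0.58 (SE 0.12) and Fasn, fatty acid synthase, at 0.30 (SE 0.11). The call of Fasn was lost in 13 of 19 alternatives, and with upper-quartile scaling Fasn stood at 0.15 (adjusted p = 0.288). The stearoyl-CoA desaturase genes Scd1 and Scd2 were lower, at -2.27 (SE 0.22) and -1.43 (SE 0.20), and Scd2 had 395 ± 79.9 CPM in IP and 1060.1 ± 228 CPM in Input. The adjusted p of the genes named from these lists was below 0.05 by rule, and the shares of all genes that passed, 26% higher and 27.9% lower, apply to each list.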

How the data were processed

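The values were raw counts of reads per gene symbol, 1 file per library, as the authors deposited them. The submitters' processing notes name STAR 2.0.0e, HTSeq and mm10, but no annotation, strand setting or counting mode, so overlapping genes cannot be told apart by strand. Rows that name no gene (1 unknown entry and 5 summary lines) were dropped, and alignments that were not unique were 31.8 to 44.5% of all counts.

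Genes were filtered with filterByExpr (minimum count 10, total 15; 17197 of 32531 kept), and IP was compared with Input in edgeR 4.0.16 (R 4.3.3) by a two-sided robust quasi-likelihood test after TMM scaling. Benjamini-Hochberg adjustment ran over all genes tested (threshold 0.05), and glmTreat tested for more than 2-fold. The SE is the absolute log2 fold change over the square root of F. CPM use TMM-scaled totals. On the gene totals before that scaling, 3 counts are 0.0654 to 0.0788 CPM (counting error only). The steps were tested on simulated data in which few genes changed, equally up and down and without pairs. That setting cannot check the scaling where, as here, 53.9% of genes passed.

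Lengths, positions and overlaps came from GENCODE M21 on GRCm38, and near-identical stretches from blastn (95% identity over 100 bases). Lane numbers pair the libraries, and deviations within pairs correlated at 0.155, 0.0744 and 0.0506 over all genes in edgeR's log CPM, against -0.107 to 0.0207 between different numbers (0.249, 0.0964 and 0.113 within pairs with 0.5 added to CPM). Replicates correlated at 0.971 to 0.985 across genes and differed by more than sampling noise (chi-square per degree of freedom 27.4 to 78.8). Replicate 3 stood apart in both groups: comparisons with it gave 69.5 to 78.8, against 29.5 in IP and 27.4 in Input between replicates 1 and 2.

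The genes and lists were chosen with earlier results of these data known. All 30 genes are named, with up to 2 genes of lowest adjusted p per direction from each further list, except 1 that is not reported here. The choice of which genes have every library printed was made after their values were seen. Alternatives were RLE, upper-quartile or no scaling, no filter or an average CPM of at least 1, the replicate block, DESeq2 1.42.0, limma-voom (limma 3.58.1), a stricter threshold of 0.01, and dropping libraries or pairs; those on the genes named from the further lists were added after seeing the data.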

Additional observations from a re-analysis of the deposited data

How the results depend on the processing

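Across 19 alternatives, 5 of the 12 called genes kept their call and direction in every fit: Acat2 and Insig2 higher, and Lss, Srebf1 and Abca1 lower. No alternative changed how reads of shared sequence were counted, so the value of Acat2 stays uncertain. The replicate block ended no call; it added the 4 genes named in the report, and gave 16 called members with a total of 4811 genes higher and 4879 lower. The cause of the changes below was not tested, except that a stricter threshold leaves fewer calls by construction. Without both replicate 3 libraries 14 members were called, against 12 with all libraries.

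At a threshold of 0.01, 1 synthesis enzyme and 2 members in all were higher, 1 gene of uptake, efflux and turnover was lower, and 192 and 1363 of all genes passed 2-fold upward and downward. Upper-quartile scaling gave 245 genes past 2-fold upward. With that scaling medians were -0.0029 for synthesis, -0.0055 for the sterol arm and -0.039 for all members, and with library totals 0.013 for synthesis and -0.026 for all members, where the median of all genes was -0.17 and -0.15. Leaving out both IP replicate 2 and Input replicate 3 gave medians of 0.026 for synthesis and -0.033 for the sterol arm, and 2 members past 2-fold lower. With no low-count filter the median of all genes was -0.22.

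Leaving out libraries or pairs moved the counts of members higher between 3 and 7, lower between 3 and 7 and past 2-fold lower between 0 and 2. Synthesis enzymes higher ranged from 2 to 4 and lower from 1 to 3. In uptake, efflux and turnover 0 to 1 were higher, 1 to 3 lower and 0 to 1 past 2-fold lower. All genes higher ranged from 2850 to 4572, and past 2-fold from 204 to 347 upward and 1223 to 2134 downward. Medians ranged from -0.031 to 0.28 for synthesis, -0.085 to 0.27 for the sterol arm and -0.050 to 0.22 for all members.

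The sign of 10 genes that did not pass turned in some fits. Mvd had -0.023 with RLE and with DESeq2, -0.14 with upper-quartile scaling, -0.13 with library totals, -0.032 with an average CPM of at least 1, -0.012 with the replicate block and -0.0094 with limma-voom. Npc2 had -0.012 with RLE and with DESeq2, -0.13 with upper-quartile scaling, -0.12 with library totals and -0.015 with an average CPM of at least 1. With upper-quartile scaling Idi1 had -0.073, Ebp -0.0055 and Sc5d -0.00034, and with library totals Idi1 had -0.060. Without IP replicate 2 and Input replicate 3 Cyp51 had -0.0030, Sc5d -0.092 and Npc2 -0.046. Over all fits with libraries left out, Mvd ranged from -0.18 to 0.12, Npc2 from -0.14 to 0.19, Idi1 from -0.10 to 0.29, Sc5d from -0.092 to 0.33, Ebp from -0.085 to 0.43 and Cyp51 from -0.044 to 0.41. Tm7sf2 ranged from -0.50 to 0.15, Msmo1 from -0.056 to 0.37, Nsdhl from -0.18 to 0.094 and Cyp46a1 from -0.34 to 0.16.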
